A study of Oryza sativa with 51 samples.

Results

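In a rice table that compares histone H2B monoubiquitination (H2Bub1) between osbzip46 mutant and wild type plants under drought, the authors marked 217 of 1265 genes as OsbZIP46 targets. These 217 genes are described here, and the other 1048 genes of the table, marked as non-targets, are the comparison group. The members were taken from the authors' yes or no entry alone. The way a target was called was not stated in the labels or file headers. The files list 55986 gene models in all.

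H2Bub1 is a histone mark that the HUB1 and HUB2 ubiquitin ligases place along transcribed genes, and it is known in plants and in yeast to accompany transcription by RNA polymerase II. OsbZIP46 is a basic leucine zipper (bZIP) protein that regulates transcription in response to abscisic acid (ABA). ABA is the hormone that plants make when water runs short, and factors of this kind bind ABA-responsive elements in promoters after SAPK kinases have phosphorylated them, while PP2C phosphatases hold those kinases back.

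The series holds 51 samples of rice seedlings with 4 leaves. The 9 RNA libraries are from the line Zhonghua11, with 3 under normal water, 3 under moderate drought (soil water near 20%, relative content) and 3 under severe drought (near 10%); their tissue is not named. Another 21 samples are chromatin immunoprecipitations (ChIP) of H2Bub1, with 21 inputs, from the same 3 conditions and from leaves of the osbzip46 mutant and its wild type under normal water or drought, all in a Zhonghua11 background. The labels name no allele, line number or mutation type for the mutant, and no RNA of the mutant was analysed here, so the RNA values below are those of plants with OsbZIP46.

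The RNA libraries implied 8.30 to 10.7 Gb of aligned bases each. Severe replicate 3 was unlike the rest (its correlations with the other 8 RNA libraries were 0.806 to 0.955), and among the 3 severe libraries it was the farthest from their median in 157 of the 217 target genes. Of 4 leaf marker IDs, 3 were lower under both droughts, and the first one listed as a Rubisco small subunit had 8230 ± 1360 TPM under normal water against 1990 ± 287 under moderate drought (mean ± SD, n = 3). Root markers listed as IRT1 and HKT2;1 were low, with group means between 0.114 and 2.23 TPM. The root marker listed as Lsi1 had means of 17.9, 12.3 and 16.5 TPM under normal water, moderate and severe drought. Library medians of all tested genes were 11.3 to 14.8 TPM. TPM (transcripts per 1000000) is a level per transcript length that sums to 1000000 in every library. A gene's TPM therefore also moves when abundant transcripts such as the leaf markers take a smaller share. The part of the leaf markers in the changes of target genes was not tested. In such bulk RNA, fewer cells of a type and less RNA per cell cannot be told apart. The labels do not say that replicates came from separate plants, so p-values measure the spread between these libraries, which may be technical.

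In the authors' deposited table, H2Bub1 was lower in the mutant at every target gene, with a log2 fold change from -2.66 to -1 and a median of -1.29. The quartiles of the 223 rows of target genes (6 genes have 2 rows each) were -1.52 and -1.14. The same authors' values for the 1064 rows of non-target genes had a median of -1.29 as well, and reached -3.25. No row of either kind lies above -1 and none has a p-value over 0.0499, so these columns show which genes entered the table and are given as a description. The values are labelled p-values, and no value adjusted for the number of genes is given beside them. Among the rows, 2 of 223 for target genes (0.897%) and 55 of 1064 for non-target genes (5.17%) were at -2 or lower in the authors' deposited table.

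The lowest value in the authors' deposited table among target genes was -2.66, with a p-value of 0.0009, at LOC_Os10g37640 (chromosome 10, 20140647 to 20144863, minus strand). The next was LOC_Os08g43560 at -2.27 in the authors' deposited table. LOC_Os04g23890 had 2 rows in the authors' deposited table, at -1.98 and -1.61. LOC_Os07g11490 followed at -1.95, and LOC_Os09g34100 and LOC_Os12g32330 at -1.94 each, in the authors' deposited table. The members just inside the table's limit were LOC_Os03g15570 at -1 and LOC_Os10g25680 and LOC_Os12g42850 at -1.01 in the authors' deposited table, and no gene just outside that limit is listed there. Coordinates come from the deposited files, whose genome build was not given in the sources used here. Neither the files nor the reference table pair any of the 217 IDs with a name or a description, so the genes are called by their IDs and their functions are not described.

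Target genes were spread over all 12 chromosomes, from 9 on chromosome 9 to 34 on chromosome 3, with 107 on the plus strand and 110 on the minus strand. Their median model length was 4417 bp, against 4563 bp for non-target genes and 3356 bp for all genes tested for RNA. Only LOC_Os02g11740 with LOC_Os02g11750, and LOC_Os04g52380 with LOC_Os04g52390, were direct neighbours in the annotation and both targets, at gaps of 1989 bp and 4123 bp. The RNA of LOC_Os02g11740 was higher under severe drought by 0.38 on the log2 scale (limma, adjusted p = 0.00195), and that of its neighbour LOC_Os02g11750 differed by 0.10 (limma, adjusted p = 0.274). Their difference from each other was not tested, and the rise of LOC_Os02g11740 did not pass with either other scaling. LOC_Os04g52390 rose by 1.12 in moderate drought (limma, adjusted p = 8.54e-05), and LOC_Os04g52380 differed by -0.06 (limma, adjusted p = 0.492), or by -0.27 and past the threshold with median-of-ratios scaling. No target model overlapped another model on its own strand, and 12 overlapped one on the opposite strand. The sources used here do not say whether counting used the strand, so reads of those 12 genes and of their antisense partners cannot be told apart.

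Target genes were highly expressed. The condition for being tested, a level of 1 TPM or more in 3 or more libraries, was met by 216 of the 217 (99.5%), against 1023 of 1048 non-target genes (97.6%) and 36.9% of all models. The median level over target genes was 44.7 to 57.9 TPM in the 9 libraries, against 32.0 to 41.7 TPM for non-target genes and 11.3 to 14.8 TPM for all tested genes. A mean of at least 100 TPM was seen in 57 target genes (26.3%), in 17.3% of non-target genes and in 8.14% of tested genes. The ratio of target to non-target medians was 1.40 to 1.41 in the normal libraries, 1.29 to 1.30 in moderate and 1.30 to 1.39 in severe drought. Together the target genes took 2.22% to 2.39% of the RNA in each library. By condition, the median over target genes was 46.3 ± 2.42 TPM under normal water, 52.7 ± 0.592 under moderate drought and 54.3 ± 3.11 under severe drought (mean ± SD of 3 libraries).

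**Figure D1:**
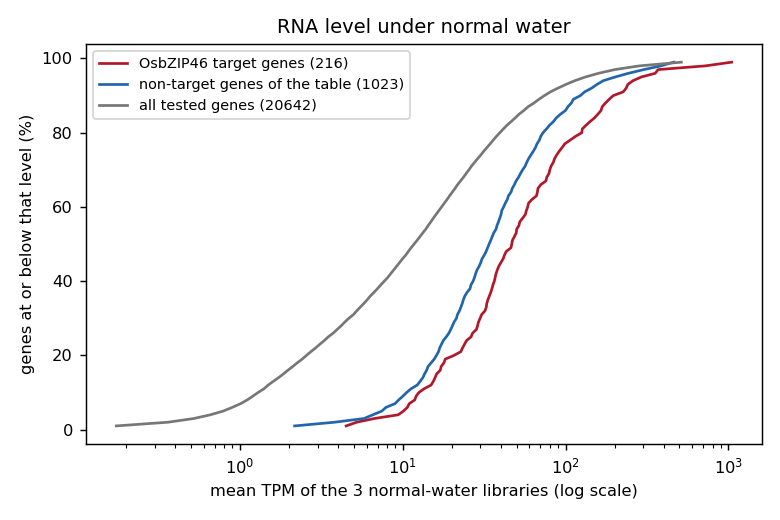
Cumulative share of genes (y axis, percent) at or below a given mean TPM of the 3 normal-water libraries (x axis, log scale) for 216 tested target genes, 1023 tested non-target genes of the same table and all 20642 tested genes. The curve of target genes lies to the right of both others over most of its length; the library medians were 44.7 to 57.9 TPM against 32.0 to 41.7 and 11.3 to 14.8.

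Of the 6 most abundant target genes, 4 fell in moderate drought and none rose, beside 18.9% lower and 39.4% higher of all tested genes; they were picked for their level, and 6 genes are too few for a comparison of shares. LOC_Os03g57220 had 2195, 2195 and 2088 TPM under normal water, 1900, 1678 and 1988 under moderate drought and 1909, 2001 and 1180 under severe drought. Its drought libraries were all below the normal ones, but neither difference passed the test (limma, adjusted p = 0.357 and 0.115). LOC_Os09g27030 had 2022, 2028 and 2216 TPM under normal water, then 1291, 1414 and 1389, then 1361, 1463 and 1254. Its RNA fell by 0.61 on the log2 scale in moderate drought (SE 0.11, limma, adjusted p = 0.00121) with no overlap between groups. LOC_Os03g12670 went from 1094, 1039 and 1117 TPM to 693, 632 and 726 in moderate drought, a fall with no overlap (log2 change -0.67, SE 0.10, limma, adjusted p = 0.000483). LOC_Os08g26870 and LOC_Os08g27850 were lower by less (log2 change -0.52 and -0.28). The fall of LOC_Os08g26870 did not pass when moderate replicate 1 or 2 or normal replicate 2 was left out. That of LOC_Os08g27850 did not pass without moderate replicate 1 or 2, or without any 1 normal replicate. LOC_Os03g31490, at 612 to 620 TPM under normal water, changed by -0.02 with an adjusted p of 0.894 by limma. The quantile normalization put the changes of LOC_Os03g57220, LOC_Os08g27850 and LOC_Os03g31490 above 0 and took the falls of LOC_Os09g27030, LOC_Os03g12670 and LOC_Os08g26870 below the threshold in moderate drought.

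At the other end, LOC_Os07g01970 (chromosome 7, 588674 to 589510, plus strand) was listed at 0 TPM in all 9 libraries. The authors' deposited table gives it an expression fold of 1.29 on the log2 scale and H2Bub1 folds of -1.64 and -1.77. The next lowest, LOC_Os10g40790, had 1.59, 1.98 and 2.19 TPM under normal water and 1.79, 1.45 and 2.05 under moderate drought, with overlap (log2 change -0.08, limma, adjusted p = 0.61). LOC_Os01g65610 had 3.24, 3.31 and 3.32 TPM under normal water and 2.32, 1.57 and 2.28 under moderate drought, a fall of 0.50 on the log2 scale (limma, adjusted p = 0.00815) with no overlap.

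Under moderate drought, which asks how target genes respond where the factor is present, RNA of 86 of the 216 tested target genes was higher (39.8%, against 39.4% of all tested genes) and RNA of 43 was lower (19.9%, against 18.9%). The other 87 did not pass the test. Both shares were near those of all genes. Among non-target genes 495 of 1023 were higher (48.4%) and 115 lower (11.2%). The median log2 change was 0.17 over target genes, 0.26 over non-target genes and 0.20 over all tested genes. Changes of at least 1 on the log2 scale were seen in 22 target genes upward (10.2%, against 12.2% of tested genes) and 5 downward (2.31%, against 7.19%). Among non-target genes 9.48% rose and 0.782% fell by as much, so large falls were few in both groups. Libraries did not overlap between the conditions in 106 target genes with higher levels (49.1%, against 48.3%) and in 55 with lower levels (25.5%, against 24.7%). Differences were tested with limma on log2(TPM + 1), two-sided, with Benjamini-Hochberg adjustment over all tested genes and a threshold of 0.05.

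The balance between higher and lower calls rests on the scaling of the libraries. With TPM, 66.7% of the called target genes were higher. With median-of-ratios scaling, which lowers the median change of all tested genes from 0.20 to 0.01, 60 target genes were higher (27.8%, against 28.5% of tested genes) and 65 lower (30.1%, against 27.5%), and 48.0% of the calls were higher. Non-target genes were at 32.7% and 21.8%, so the balance moved in all 3 sets. Relative to the median of all tested genes, the median of target genes was lower by 0.03 with TPM and by 0.04 with that scaling.

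Under severe drought, RNA of 94 target genes was higher (43.5%, against 42.1% of tested genes) and RNA of 51 was lower (23.6%, against 20.6%). Of non-target genes 516 were higher and 144 lower. Medians were 0.19 for target genes, 0.29 for non-target genes and 0.22 for all tested genes. Changes of at least 1 were seen in 23 target genes upward (10.6%, against 13.8%) and in 6 downward (2.78%, against 7.93%). Among non-target genes the shares were 10.2% and 2.44%. Libraries did not overlap with normal water in 101 target genes with higher levels (46.8%, against 45.3%) and in 63 with lower levels (29.2%, against 23.3%). Without severe replicate 3, 97 were higher (44.9%, against 44.4% of tested genes) and 58 lower (26.9%, against 22.5%). With TPM 64.8% of the called target genes were higher, and with median-of-ratios scaling 45.5%. That scaling put 30.6% of target genes higher and 36.6% lower, against 30.8% and 29.0% of all tested genes. The moderate and severe comparisons share the 3 normal libraries, so their counts are not independent of each other.

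**Figure D2:**
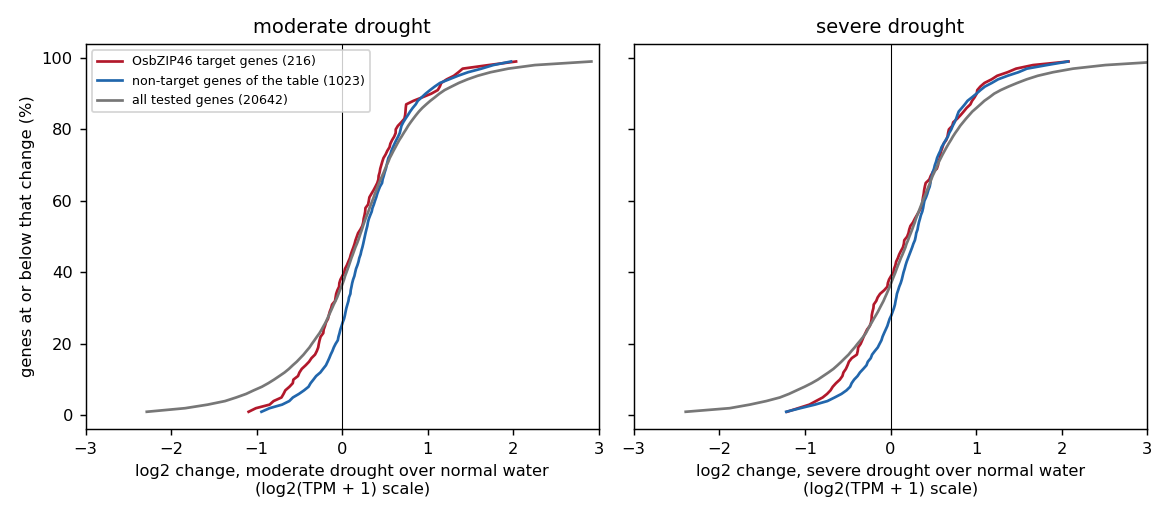
Cumulative share of genes (y axis, percent) at or below a given log2 change in RNA (x axis, log2(TPM + 1) scale) for moderate drought (left) and severe drought (right) over normal water. The curves of 216 target genes cross 50% at 0.17 and 0.19, next to 0.20 and 0.22 for all 20642 tested genes, and the curves of 1023 non-target genes at 0.26 and 0.29; the curve of all tested genes reaches farther out at both ends.

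Between severe and moderate drought no target gene passed the test with limma (0 of 216, against 0.0145% of tested genes, or 3 of 20642). At an unadjusted p under 0.05 there were 20 target genes (9.26%, against 12.5% of tested genes), and the smallest adjusted p was 0.209. The median log2 difference was -0.01. No other tool was run on this comparison.

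Genes with the largest rises and falls were picked among those past the threshold, with no overlap between the libraries compared. Their lack of overlap in the drought that picked them follows from that choice. The largest rise belonged to LOC_Os01g58194 (chromosome 1, 33641954 to 33650995, plus strand). It had 5.12, 5.64 and 6.14 TPM under normal water, 49.4, 58.6 and 52.9 under moderate drought and 59.2, 52.4 and 112 under severe drought. Every drought library was above every normal library, and severe replicate 3 was the highest. The log2 change was 3.04 in moderate drought (SE 0.25, limma, adjusted p = 1.85e-05) and 3.43 in severe drought. The ratio of mean levels was 9.51 and 13.3.

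LOC_Os05g38150 (chromosome 5, 22374029 to 22381039, minus strand) had 15.1, 14.9 and 16.6 TPM under normal water, 93.2, 110 and 101 under moderate drought and 91.8, 86.0 and 108 under severe drought. The conditions did not overlap with normal water, and both droughts were alike in level (log2 change 2.63 and 2.54, limma, adjusted p = 8.58e-07 and 1.03e-06). LOC_Os09g32976 (chromosome 9, 19683541 to 19685873, minus strand) had 50.7, 53.4 and 72.2 TPM, then 269, 281 and 197, then 237, 278 and 256. It rose by 2.06 and 2.12 without overlap. LOC_Os02g10310 had 80.4, 86.2 and 87.0 TPM, then 242, 352 and 333, then 272, 256 and 397, again with all drought libraries above normal water (log2 change 1.84 and 1.83). LOC_Os07g12250 had 39.5, 39.2 and 45.4 TPM, then 148, 153 and 125, then 147, 145 and 123, a rise of 1.75 and 1.71 without overlap.

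LOC_Os11g45710 had 10.4, 11.4 and 10.9 TPM, then 34.1, 28.2 and 45.97, then 25.9, 31.6 and 21.4. Its level was lower in severe than in moderate drought on average, with overlap between the droughts (log2 change 1.61 and 1.18 over normal water). LOC_Os02g42940 rose from 15.1 ± 1.47 to 42.3 ± 5.48 and 44.9 ± 16.1 TPM (mean ± SD, n = 3). LOC_Os05g50840, one of the genes with an antisense partner, rose from 41.6 ± 8.22 to 109 ± 7.88 and 98.5 ± 1.04 TPM. Among the largest rises in severe drought were also LOC_Os02g04160, from 38.7 ± 8.38 to 116 ± 33.0 TPM, and LOC_Os12g08260, from 80.2 ± 14.2 to 225 ± 45.0 TPM, the latter also with an antisense partner.

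LOC_Os11g04409 (chromosome 11, 1835451 to 1837930, minus strand) showed the largest fall. It had 61.0, 64.1 and 80.7 TPM under normal water, 16.8, 12.7 and 21.6 under moderate drought and 18.7, 17.9 and 18.3 under severe drought. Every drought library lay well below every normal library (log2 change -1.97 and -1.84, limma, adjusted p = 2.92e-05 and 4.17e-05). LOC_Os04g36062 (chromosome 4, 22017861 to 22024724, plus strand), which has an antisense partner, had 104, 99.6 and 107 TPM, then 34.1, 30.0 and 35.9, then 29.5, 33.0 and 25.9. It fell by 1.61 and 1.79 without overlap. LOC_Os03g62510 had 124, 123 and 130 TPM, then 56.2, 54.6 and 64.0, then 52.9, 55.9 and 51.4, and its libraries were again apart (log2 change -1.10 and -1.22).

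Smaller falls were seen in LOC_Os02g53140, from 58.6 ± 6.90 to 27.9 ± 3.89 and 26.6 ± 3.15 TPM, and in LOC_Os03g12840, from 52.3 ± 1.90 to 27.1 ± 6.34 and 25.7 ± 2.26 TPM. LOC_Os01g54560, LOC_Os12g32630 and LOC_Os08g06110 fell in moderate drought by 1.03, 0.86 and 0.83 on the log2 scale. The normal libraries of LOC_Os01g54560 spread from 20.4 to 38.1 TPM, and severe replicate 3 of LOC_Os08g06110, at 27.0 TPM, stood near the normal libraries at 27.6 to 30.4. In severe drought LOC_Os04g33460 went from 240, 221 and 248 TPM to 112, 100.5 and 109, against 164, 218 and 160 in moderate drought. Its severe libraries were below all others (log2 change -1.13, limma, adjusted p = 9.39e-05). LOC_Os03g11890 and LOC_Os04g52900 fell by 0.95 and 0.94 in severe drought. The 8 largest rises and the 8 largest falls of each drought kept their direction and their call under every alternative run, both other scalings included.

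**Figure D3:**
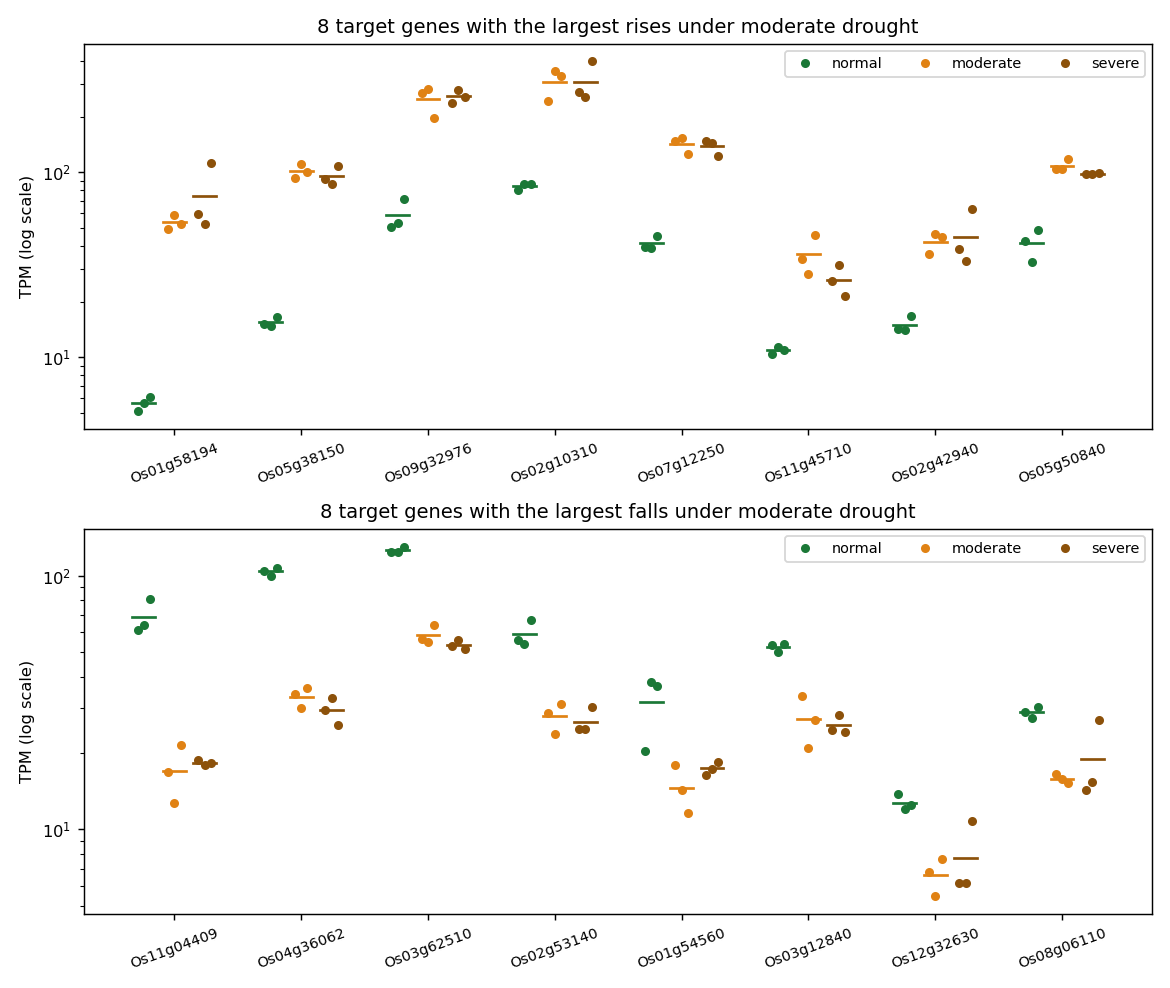
TPM (y axis, log scale) in each RNA library for the 8 target genes with the largest rises (top) and the 8 with the largest falls (bottom) under moderate drought; points are libraries, horizontal bars the means of 3, and colours the conditions. The genes were picked among those with no overlap between moderate drought and normal water. Their points are clear of each other by that choice. LOC_Os01g58194 had 5.12 to 6.14 TPM under normal water against 49.4 to 58.6 under moderate drought. In severe drought 1 library, replicate 3, lies above the other 2 in LOC_Os01g58194, LOC_Os02g10310, LOC_Os02g42940, LOC_Os12g32630 and LOC_Os08g06110, among others.

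RNA of the 6 target genes with the lowest mutant H2Bub1 moved in both directions. LOC_Os10g37640 had 9.87, 10.4 and 9.78 TPM under normal water, 12.6, 13.4 and 12.7 under moderate drought and 12.3, 12.0 and 12.4 under severe drought, apart in every library but by little (log2 change 0.34 and 0.26, limma, adjusted p = 0.00341 and 0.011). Under median-of-ratios scaling that change was 0.13 and 0.06 and no longer passed. LOC_Os08g43560 ranged from 125 to 255 TPM with overlap between normal and moderate libraries (limma, adjusted p = 0.289). LOC_Os07g11490 rose from 15.4, 16.0 and 20.1 TPM to 45.5, 48.3 and 40.9 in moderate drought (log2 change 1.35). LOC_Os12g32330 rose by 0.61, LOC_Os09g34100 fell by 0.23, and LOC_Os04g23890 differed by 0.31 with an adjusted p of 0.0839 by limma. The rise of LOC_Os12g32330 did not pass with quantile normalization, and the fall of LOC_Os09g34100 did not pass with FPKM, without a filter or when any 1 of 5 libraries was left out. The genes at the other limit, LOC_Os03g15570, LOC_Os10g25680 and LOC_Os12g42850, differed by -0.08, 0.21 and -0.07 and did not pass. Across the 216 tested target genes, the authors' H2Bub1 fold and the RNA change had a Spearman correlation of 0.06 in moderate and 0.09 in severe drought. That is a description across genes, which share the same libraries and are not replicates.

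Of 55 IDs in 9 lists of ABA, drought and tissue marker genes, 2 were targets and 0 were non-targets. That is 3.64% of the listed genes in the table, against 2.26% of all gene models and 6.0% of tested genes. The pairing of IDs with names in these lists comes from general knowledge of rice, not from the files. One is LOC_Os09g28310, listed as bZIP72, an ABA-related factor, at -1.47 with a p-value of 0.00029 in the authors' deposited table. It had 90.3, 92.0 and 103 TPM under normal water, 127, 122 and 130 under moderate drought and 120, 119 and 92.3 under severe drought. The moderate libraries were above all normal ones (log2 change 0.41, limma, adjusted p = 0.0126). In severe drought replicate 3 lay within the normal range, and the change of 0.20 did not pass (limma, adjusted p = 0.147). Without that library the severe change was 0.32 and passed (limma, adjusted p = 0.00415). With median-of-ratios scaling the moderate and severe changes were 0.19 and -0.02 and did not pass. The other is LOC_Os05g51510, listed as PP2C53, a phosphatase of ABA signalling, at -1.44 in the authors' deposited table. It had 24.4, 22.7 and 26.5 TPM, then 29.2, 24.8 and 26.2, then 28.1, 25.2 and 29.1, and its groups overlapped (limma, adjusted p = 0.319 and 0.185).

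List genes outside the table are given for comparison. In moderate drought 8 of 9 PP2C phosphatases and 5 of 5 ABA-related bZIP factors were higher and none was lower, with the 2 targets included. In severe drought the counts were 8 and 4, and without severe replicate 3 they were 8 and 5. Beside these and the list counts below, 39.4% of all tested genes were higher and 18.9% lower in moderate drought. In severe drought these shares were 42.1% and 20.6%. LOC_Os06g10880, listed as bZIP46 itself, rose from 2.68 ± 0.398 to 10.4 ± 1.14 TPM in moderate and 9.58 ± 0.872 TPM in severe drought (limma, adjusted p = 1.11e-05 and 1.55e-05). Of 10 SAPK kinases, 4 were higher and 4 lower in either drought. Of 9 dehydrin and LEA genes, which protect cells in drying tissue, 7 were tested, and 5 of them were higher in moderate and 7 in severe drought. Severe replicate 3 was far above the others in several of them, as in LOC_Os02g44870, listed as LIP9, at 151, 81.6 and 717 TPM; without that library 7 were higher as well. The IDs listed as HUB1 and HUB2 were in neither group: HUB1 had 49.6 ± 5.02 and 47.7 ± 4.67 TPM under normal water and moderate drought (limma, adjusted p = 0.67), and HUB2 fell from 55.7 ± 2.49 to 45.9 ± 3.13 (limma, adjusted p = 0.0194). In moderate drought, 2 of 5 genes of ABA synthesis and breakdown were higher and 1 lower, and 1 of 8 stress NAC and DREB factors was higher and 1 lower; in severe drought the counts were 2 and 2, and 4 and 2.

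The authors' deposited table also holds an expression fold for each gene, drought over normal in wild type, with a median of 0.43 for target and for non-target genes. The sources used here name neither the drought stage nor the libraries behind it, so it may share libraries with the comparisons above. In the authors' deposited table the value was above 0 for 148 of 217 target genes (68.2%, against 69.3% of non-target genes) and at least 1 for 69 (31.8%, against 25.5% of non-target genes). It did not always point the way the RNA libraries did. Its sign was that of the fitted change in 137 of 216 tested target genes in moderate drought (63.4%, against 61.3% of non-target genes). In severe drought this held for 139 (64.4%, against 61.0%). Of the 68 tested target genes with an authors' value of at least 1, 32 were higher (47.1%, against 49.8% of the like non-target genes and 39.4% of all tested genes), 8 lower and 28 not called in moderate drought. In severe drought 37 of them were higher (54.4%, against 54.8% and 42.1%), 11 lower and 20 not called. LOC_Os11g04409, with the largest fall, has 2.79 in the authors' deposited table. LOC_Os09g32976 and LOC_Os07g12250, which rose, have -1.57 and -1.27 in the authors' deposited table.

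The extremes of that column show both cases. LOC_Os02g04160 has the highest value in the authors' deposited table, 5.47, and LOC_Os01g58194 has 4.78; both rose in the RNA libraries, by 1.12 and 3.04 in moderate drought. LOC_Os03g07190, with an antisense partner, has 4.21 in the authors' deposited table, and its libraries gave 231, 235 and 269 TPM under normal water against 319, 462 and 367 under moderate drought. Its moderate libraries were all above the normal ones, but the change of 0.62 did not pass (limma, adjusted p = 0.0706). In a fit of the 6 normal and moderate libraries alone the same change passed (limma, adjusted p = 0.00301). LOC_Os02g36974 has the lowest value in the authors' deposited table, -2.63, with 79.1, 79.1 and 87.7 TPM against 74.3, 63.2 and 66.8 (log2 change -0.27, limma, adjusted p = 0.136). With median-of-ratios scaling its change was -0.48, with quantile normalization -0.46, and both passed, as did -0.27 in a fit of 6 libraries (limma, adjusted p = 0.0169, 0.0361 and 0.0194). LOC_Os01g01640, at -1.59 in the authors' deposited table, rose from 45.7, 45.2 and 50.4 TPM to 80.2, 81.0 and 77.5 (log2 change 0.75, limma, adjusted p = 4.49e-05), with no overlap. LOC_Os04g47860, also at -1.59 in the authors' deposited table, had 44.7, 87.3 and 94.97 TPM under normal water, a spread that takes in all 3 moderate libraries at 62.2 to 72.2.

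**Figure D4:**
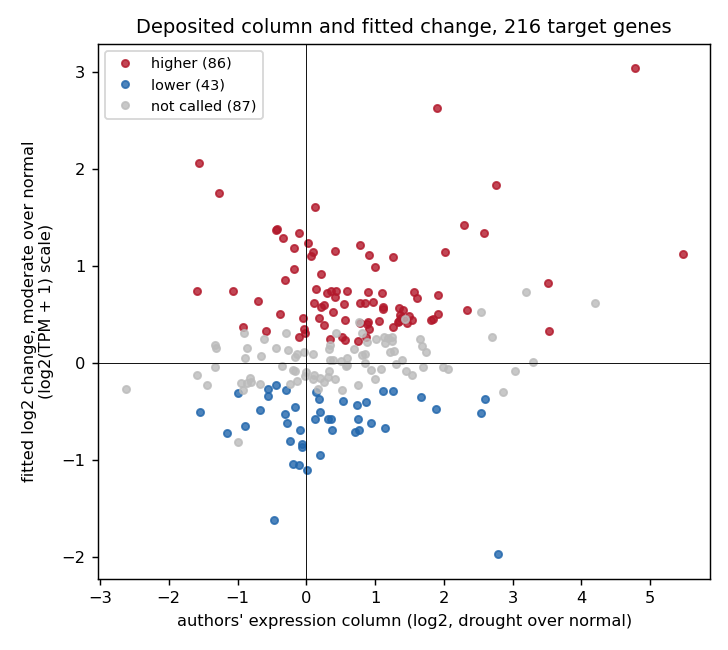
Each of 216 target genes by the authors' expression fold (x axis, log2, drought over normal) and the fitted log2 change in moderate drought (y axis, log2(TPM + 1) scale); colours give the call. Points fall in all 4 quadrants, with LOC_Os01g58194 at 4.78 and 3.04 in the upper right, LOC_Os11g04409 at 2.79 and -1.97 in the lower right and LOC_Os09g32976 at -1.57 and 2.06 in the upper left.

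Most target genes were in none of the other H2Bub1 tables, which list regions of 500 bp compared between 2 conditions. Every region of both drought tables had a false discovery rate (FDR) under 0.05 in the authors' deposited tables. In the mutant table only 9 of 522 regions did, so being listed there does not mean a difference at that limit. Of the 217 target genes, 198 had no region in any of the 3 tables. Another 16 had a region in 1 table, 3 in 2 tables and 0 in all 3. In the table for moderate drought, 10 target genes (4.61%) had a region, against 2.77% of non-target genes and 6.11% of tested genes. In the table for severe drought, 9 target genes (4.15%) had one, against 2.86% and 4.02%. These shares were near those of tested genes. Of the 10 and 11 regions of target genes in these tables, 9 and 10 lie inside the gene model.

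H2Bub1 at target genes moved both ways in drought. Of 10 regions listed for moderate drought, 4 were higher and 6 lower in drought, and of 11 listed for severe drought, 4 were higher and 7 lower. Among all regions listed, 16.1% and 10.5% of regions were higher. Of the 29 and 30 regions of non-target genes, 3 and 0 were higher. With so few regions these counts are a description.

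The 4 target genes with more H2Bub1 in moderate drought were LOC_Os01g58194, LOC_Os11g45710, LOC_Os02g04160 and LOC_Os02g45690, and RNA of all 4 was higher in moderate drought, against 39.4% of tested genes. At LOC_Os01g58194, the gene with the largest RNA rise, the authors' deposited table puts the region at chr1:33643099-33643598, inside the gene and 1145 bp from its start site. Its log2 concentration was 6.75 in moderate drought and -0.06 under normal water in the authors' deposited table. The log2 fold of 6.80 had an FDR of 1.53e-10 in the authors' deposited table. Its size rests on the value of -0.06, the lowest of any target-gene region listed for either drought, with 2.64 the next. No region of LOC_Os01g58194 was listed for severe drought, where its RNA rose by 3.43 on the log2 scale. LOC_Os11g45710 gained 1.59 at chr11:27652671-27653170, from 4.73 to 6.33 on the log2 scale of the authors' deposited table.

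LOC_Os02g04160 (chromosome 2, 1816290 to 1819094, minus strand) has a gain in both tables at nearly the same place, with 497 bp shared. The authors' deposited tables give a log2 fold of 1.39 in moderate and 1.28 in severe drought. Both regions lie at the start site of the transcript LOC_Os02g04160.2, inside the gene model. Its RNA was 32.9, 34.8 and 48.3 TPM under normal water, 87.0, 86.6 and 79.5 under moderate and 100.2, 94.5 and 154 under severe drought, with no overlap with normal water. LOC_Os02g45690, which has an antisense partner, goes the opposite way in the tables. The authors' deposited tables give log2 folds of 1.03 in moderate and -3.38 in severe drought. These regions share 186 bp and lie 2465 and 2779 bp from the start site. Its RNA was 15.1, 16.5 and 15.7 TPM, then 27.7, 29.7 and 28.7, then 27.8, 27.2 and 42.1, and so was higher in both droughts (log2 change 0.82 and 0.96, limma, adjusted p = 0.00155 and 0.000626).

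RNA of target genes with less H2Bub1 in moderate drought moved in both directions, and 39.4% of all tested genes were higher and 18.9% lower. Of the 6, RNA of 1 was higher (LOC_Os06g03860, from 21.8 to 25.6 TPM under normal water to 30.8 to 35.1) and RNA of 3 was lower (LOC_Os01g65610, LOC_Os03g05200 and LOC_Os09g06464). With either other scaling the rise of LOC_Os06g03860 did not pass, and the fall of LOC_Os03g05200 did not pass without a filter, or when moderate replicate 1 or 2 or normal replicate 2 or 3 was left out. The region of LOC_Os01g65610 lies outside its gene model, 2670 bp upstream of the start site. LOC_Os01g45750 and LOC_Os02g07160 did not pass the test. LOC_Os02g07160 has a log2 fold of -1.09 in the authors' deposited table and an antisense partner. It had 211 TPM in severe replicate 3 against 86.6 and 78.1 in the other severe libraries.

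In severe drought, 3 target genes had gained regions (LOC_Os02g04160, LOC_Os02g46920 and LOC_Os09g06464), with RNA higher in 1 and lower in 1. Of the 7 with lost regions, LOC_Os09g06464 again among them, RNA was higher in 2 and lower in 2. The lost region of LOC_Os03g54240, 1 of the 2 with lower RNA, lies outside its gene model, 10758 bp from the start site. Of all tested genes 42.1% were higher and 20.6% lower. LOC_Os12g08260 lost H2Bub1 by a fold of -2.91 in the authors' deposited table, from 5.95 to 3.04 on the log2 scale, while its RNA was 73.1, 70.9 and 96.5 TPM under normal water and 218, 183 and 273 in severe drought. LOC_Os03g12840 lost H2Bub1 by a log2 fold of -1.74 in the authors' deposited table. Its RNA went from 53.4, 50.1 and 53.5 TPM to 24.6, 28.3 and 24.2. RNA rose in the first and fell in the second, both with no overlap of libraries.

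LOC_Os09g06464 (chromosome 9, 3048020 to 3064571, minus strand) has regions of both signs in its introns. At chr9:3052479-3052978 the authors' deposited tables give log2 folds of -2.71 in moderate and -1.70 in severe drought. Closer to the start of the gene, at 4641 and 6647 bp from it, the authors' deposited tables give log2 folds of 1.13 and 1.21 in severe drought. Its RNA was 21.9, 23.2 and 23.0 TPM under normal water and 12.4, 11.9 and 16.5 in moderate drought, a fall (log2 change -0.71, limma, adjusted p = 0.0202) that no longer passed when moderate replicate 1 or 2 or normal replicate 2 or 3 was left out. In severe drought it was 14.9, 14.7 and 26.7 TPM, with severe replicate 3 above the normal libraries, and the change of -0.31 did not pass (limma, adjusted p = 0.232), whereas without that library it was -0.58 and passed.

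**Figure D5:**
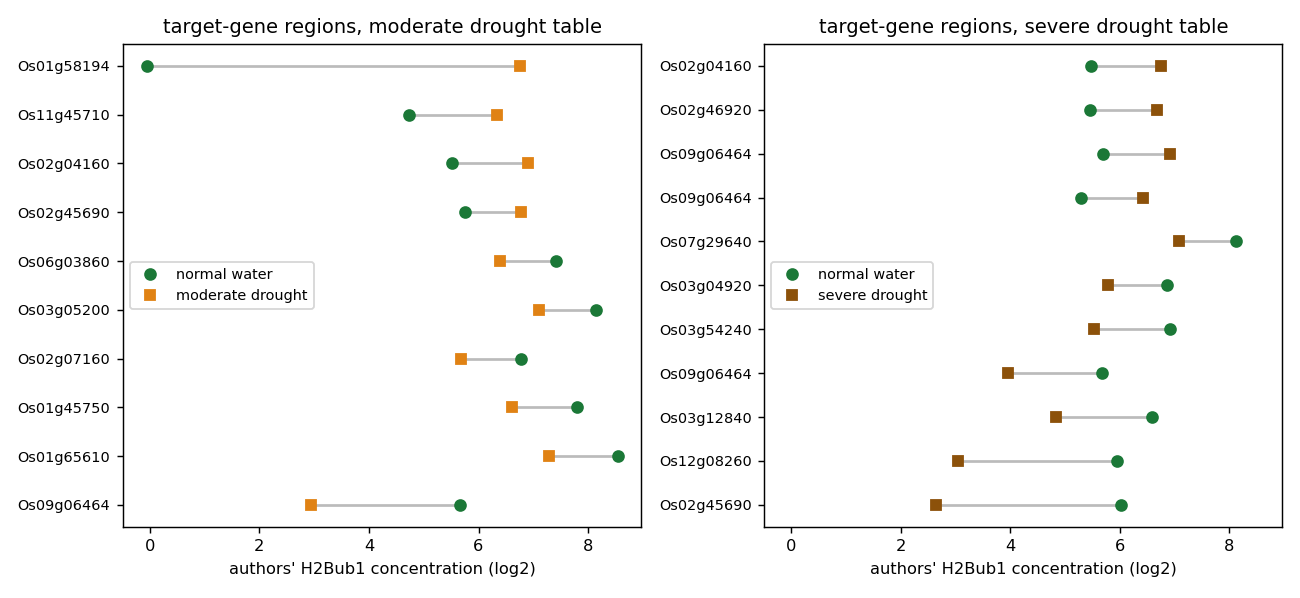
The authors' log2 H2Bub1 concentration (x axis) under normal water (circles) and drought (squares) for each region of a target gene (y axis, gene ID) in the moderate drought table (left, 10 regions) and the severe drought table (right, 11 regions). Grey lines join the values of a region; the line of LOC_Os01g58194 runs from -0.06 to 6.75, and LOC_Os02g45690 and LOC_Os12g08260 drop to 2.64 and 3.04 in severe drought.

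A separate table of regions for mutant against wild type, which its name ties to drought, held 3 target genes (1.38%, against 2.25% of tested genes). In the authors' deposited table these are LOC_Os04g47860, LOC_Os04g52390 and LOC_Os07g01970, with more H2Bub1 in the mutant by log2 folds of 1.67, 1.11 and 1.94. Their FDR values in the authors' deposited table are 0.717, 0.824 and 0.933. The gene table gives the same 3 genes lower H2Bub1 in the mutant, at -1.82, -1.10 and -1.64 or -1.77 in the authors' deposited table. The sign of these 3 genes thus differs between both deposited tables. Of all 522 regions in the region table, 82.8% were higher in the mutant and 9 had an FDR under 0.05. The sources used here do not say how the gene table was made from regions.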

How the data were processed

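The deposited TPM and FPKM values and the coverage per gene (9 libraries) and the authors' tables of log2 fold changes, log2 concentrations and p-values of H2Bub1 were used as they stand, per the file headers. The submitters' processing notes list Bowtie2 2.3.4, MACS2 2.1.1, DESeq2 1.20.0 and HISAT2 2.0.5, giving no role for any. Build and annotation: not given in the sources used here. Single ChIP libraries were not analysed here. Aligned bases were implied by coverage over FPKM. limma 3.58.1 in R 4.3.3 (trended, robust) was fitted to log2(TPM + 1) of all 9 libraries, for 20642 genes that reached 1 TPM in 3 or more libraries, after tests on simulated data. This scale understates changes of low genes. Named genes are the extremes of H2Bub1 fold, RNA change, level and authors' expression fold, list genes, and genes in every other H2Bub1 table or with the 6 largest region folds of each. Other genes with regions, direct neighbours and LOC_Os10g40790 were named after their values were seen. The members and lists were chosen with earlier results of these data known. Promoters, proteins and descriptions were not used here.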

Additional observations from a re-analysis of the deposited data

How the results depend on the processing

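Library scaling moved the calls of target genes most. With median-of-ratios scaling, 65 target genes were lower in moderate drought (30.1%, against 27.5% of tested genes) and 79 in severe drought (36.6%, against 29.0%), with median changes of -0.036 and -0.027. With quantile normalization the medians were 0.003 and -0.017, and severe drought gave 61 higher (28.2%, against 28.8%) and 80 lower (37.0%, against 30.8%). The median change of non-target and of all tested genes moved with it, and the cause was not tested. At an authors' FDR under 0.01, 0 target genes were in the mutant region table. Leaving out 1 library gave 76 to 83 higher (35.2% to 38.4%, against 33.0% to 38.0% of tested genes) in moderate drought. It gave 32 to 40 lower (14.8% to 18.5%, against 15.9% to 17.4%). In severe drought it gave 84 to 98 higher (38.9% to 45.4%, against 35.5% to 44.4%). There it gave 36 to 58 lower (16.7% to 26.9%, against 17.6% to 22.5%). With the replicate number as a block, 88 were higher (40.7%, against 38.6% of tested genes) and 43 lower (19.9%, against 18.5%) in moderate drought. In severe drought 93 were higher (43.1%, against 41.3%) and 48 lower (22.2%, against 20.1%). The numbers share no stated batch. Deviations of log2 levels from the mean of their condition were correlated between same-numbered libraries over the tested genes. The correlations were -0.059 to 0.041 for moderate drought and normal water and -0.025 to 0.143 for severe drought and normal water. Between both droughts they were -0.257 to 0.094, so the libraries were not taken as pairs. The counts under FPKM, pseudocount 0.1, no filter and 6 libraries stayed within 1.5 times those reported, in both droughts. The 0 calls between droughts held under each setting.

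Of 1508 recomputed values of named genes, 1362 kept direction and call, 73 no longer passed, 34 newly passed and 39 changed sign. Taken per gene and drought comparison, 56 of 116 kept direction and call under every alternative. With median-of-ratios scaling, LOC_Os01g45750 was at -0.063 and -0.01, LOC_Os05g51510 at -0.094 and -0.058, and LOC_Os10g25680 at -0.008 and -0.094 in moderate and severe drought. It put LOC_Os02g11750 at -0.031 and -0.114. In severe drought that scaling put LOC_Os09g28310 at -0.017, LOC_Os12g42850 at -0.164, LOC_Os04g52380 at -0.133 and LOC_Os07g29640 at -0.157. With quantile normalization, LOC_Os01g45750 was at -0.051 and -0.038, LOC_Os05g51510 at -0.111 and -0.101, LOC_Os03g57220 at 0.24 and 0.165, LOC_Os02g11750 at -0.012 and -0.138, and LOC_Os08g27850 at 0.056 and 0.033. Quantile values were 0.209 for LOC_Os03g31490 in moderate drought, and in severe drought -0.052 for LOC_Os09g28310, -0.125 for LOC_Os10g25680, -0.138 for LOC_Os12g42850, -0.17 for LOC_Os04g52380 and -0.191 for LOC_Os07g29640. FPKM put LOC_Os03g31490 at 0.005. Leaving out 1 library gave -0.076 to 0.021 for LOC_Os03g31490, -0.457 to 0.078 for LOC_Os04g47860, -0.163 to 0.007 for LOC_Os10g40790 and -0.14 to 0.011 for LOC_Os12g42850 in moderate drought. In severe drought the ranges were -0.151 to 0.101 for LOC_Os04g23890, -0.493 to 0.042 for LOC_Os04g47860, -0.014 to 0.109 for LOC_Os07g29640 and -0.068 to 0.145 for LOC_Os12g42850.

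Promoter motifs and function classes were planned but not run, since no promoters or descriptions were at hand. Read counts were not used here, so depth per gene is unknown, and 3 libraries per condition limit the precision of small changes.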
